A study of Mus musculus with 6 samples.

Results

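Cyp11a1 and 7 further genes of steroid synthesis and response (Star, Tspo, Fdx1, Fdxr, Hsd3b1, Cyp21a1 and Nr3c1) were followed through mouse Th2 cell cultures in which GATA3 had been knocked down. The genes were chosen by name for their place in mitochondrial steroid synthesis, with earlier results of these data known. Every microarray probe set that named 1 of them alone was taken. This gave 19 probe sets for 7 of the 8 genes, out of 34958 probe sets that named 1 gene and 18194 genes in all. Cyp11a1, Star and Tspo had 3 probe sets each, Nr3c1 had 6, Cyp21a1 had 2, and Fdx1 and Hsd3b1 had 1 each. Fdxr had no probe set naming it alone and was not analysed here.

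The series held 6 Affymetrix Mouse Genome 430 2.0 arrays, 1 for each condition, of RNA from C57BL/6 mice 6 to 8 weeks old. Splenic CD4 T cells (purity over 98%) were kept for 5 days with anti-TCR and anti-CD28 antibodies, IL-2 at 25 U/ml and IL-4 at 100 U/ml to give Th2-1st cells. Th2-4th cells had gone through further cycles, each of 2 days without cytokines and 5 days of restimulation with anti-TCR, IL-2 and an antibody that blocked IL-4, so that the cultures differed in IL-4 blocking as well as in age. In both cultures, cells were transfected with GATA3 siRNA or control siRNA, and 24 h later were restimulated for 4 h on immobilized anti-TCR. A control siRNA array of unstimulated cells was made for each culture, and no array of unstimulated GATA3 siRNA cells was analysed here. With 1 array per condition there was no replicate error and no test between conditions. All signals came from bulk RNA, in which fewer cells of a type and less RNA per cell cannot be told apart.

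Steroid synthesis starts in mitochondria. Star and Tspo, proteins of the outer mitochondrial membrane, take part in bringing cholesterol to the inner membrane. There Cyp11a1, the cholesterol side-chain cleavage enzyme, makes pregnenolone from it with electrons that ferredoxin (Fdx1) carries from ferredoxin reductase (Fdxr). Hsd3b1 then makes progesterone from pregnenolone, Cyp21a1 hydroxylates progesterone on the way to corticosterone, and Nr3c1 is the glucocorticoid receptor that binds the end product. These genes are best known from adrenal gland and gonads, and Cyp11a1 is also known as a gene of mouse Th2 cells, in which GATA3 is the lineage-defining transcription factor.

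Values are signal intensities on a linear scale. The mean signal after trimming 2% of probe sets at each end was 500.0 on every array, and the array medians lay between 61.8 and 74.2. A log2 ratio of a probe set is read here against its like-signal spread, which is the robust SD of the same ratio among the 1000 probe sets nearest to it in signal. That spread describes how much arrays differ for probe sets of like brightness and is not a replicate error. A probe set was called lower below 0.5-fold and higher above 2-fold. Signals of different probe sets are not compared with each other, so that no gene is placed above another. All 7 T cell markers checked (Cd3e, Cd3g, Cd3d, Cd4, Cd28, Cd5 and Icos) were above the array median on all 6 arrays. Of the CD8 T and NK cell markers, Cd8a and Cd8b1 were above it on 6 arrays, Eomes on 4 and Ncr1 on 0. A signal above the median thus does not set CD4 T cells apart from CD8 T cells. Gata3 itself, the target of the siRNA, had a signal of 2853 with GATA3 siRNA and 9261 with control siRNA in stimulated Th2-4th cells, a log2 ratio of -1.70. In stimulated Th2-1st cells it had 1798 with GATA3 siRNA and 4883 with control siRNA, a log2 ratio of -1.44. Its transcript was therefore lowered but still measured on both GATA3 siRNA arrays.

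RefSeq (build GRCm38.p6) places 2 start sites of Cyp11a1 on chromosome 9, plus strand, at windows chr9:57997774-57998073 and chr9:58014702-58015001, each running 250 bases before the start site to 50 bases after it. Both windows are shown because GATA3 was the protein knocked down and Cyp11a1 carried the largest decrease among the steroid synthesis genes. Capitals mark the letters GATA with an A or T before them and an A or G after them, the core that GATA proteins bind, and the letters AGGTCA, a half-site of the Nr5a1 receptor family, both searched on both strands.
Cyp11a1 start site 1: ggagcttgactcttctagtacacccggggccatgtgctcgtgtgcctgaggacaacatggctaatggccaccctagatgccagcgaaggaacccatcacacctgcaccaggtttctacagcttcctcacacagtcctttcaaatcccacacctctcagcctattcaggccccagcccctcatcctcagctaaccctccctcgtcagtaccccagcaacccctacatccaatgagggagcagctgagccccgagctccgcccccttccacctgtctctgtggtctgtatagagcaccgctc
Cyp11a1 start site 2: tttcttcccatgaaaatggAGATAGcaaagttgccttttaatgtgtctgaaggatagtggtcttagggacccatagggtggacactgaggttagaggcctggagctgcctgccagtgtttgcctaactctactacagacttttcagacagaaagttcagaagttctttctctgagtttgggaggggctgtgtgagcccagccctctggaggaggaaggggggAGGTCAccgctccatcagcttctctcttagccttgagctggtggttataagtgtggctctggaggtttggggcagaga

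The window at start site 1 held neither set of letters. The window at start site 2 held AGATAG from position -231 and AGGTCA from position -28, both on the strand shown and counted from the start site. Of 32851 windows of the same length in the table, 29.8% held such GATA letters and 16.3% held AGGTCA, so both are common, and a match of letters is not a binding site. Among the other genes, windows of Fdx1, Fdxr and Hsd3b1 were used. Any windows of Nr3c1 were left out of the search, so none is described for that gene. Fdx1 held TGATAA from position -192, Fdxr held TGATAA from position -177, and Hsd3b1 held TGATAG from position -186 and AGATAA on the opposite strand from position -134.

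The brightest Cyp11a1 probe set, 1448804_at, was much lower with GATA3 siRNA in both cultures. In stimulated Th2-4th cells its signal was 4446 with GATA3 siRNA and 17052 with control siRNA, which is 3.84-fold lower (log2 ratio -1.94, like-signal spread 0.17). In stimulated Th2-1st cells it was 2055 with GATA3 siRNA and 10676 with control siRNA, which is 5.20-fold lower (log2 ratio -2.38, like-signal spread 0.14). Both ratios lay many times their like-signal spread from zero. The remaining signal was 26.1% of control in Th2-4th cells and 19.2% in Th2-1st cells. The log2 ratio of Th2-4th cells minus that of Th2-1st cells was 0.44, a difference with no replicate to test it. Among genes above the array median, each by its brightest probe set, 118 of 11045 had a lower ratio than Cyp11a1 in Th2-4th cells and 45 of 10962 in Th2-1st cells.

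The same probe set was brighter after TCR stimulation of control cells. Its signal was 17052 in stimulated and 7534 in unstimulated Th2-4th cells, a log2 ratio of 1.18 (like-signal spread 0.50). In Th2-1st cells it was 10676 when stimulated and 6026 when not, a log2 ratio of 0.83 (like-signal spread 0.48), which did not reach 2-fold. Thus Cyp11a1 was already bright before restimulation, and the stimulated GATA3 siRNA cells, at 4446 and 2055, lay below the unstimulated control cells of their own culture. Between cultures, Th2-4th over Th2-1st gave a log2 ratio of 0.68 (like-signal spread 0.42) in stimulated cells and 0.32 (0.61) in unstimulated cells. Neither reached 2-fold.

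**Figure D1:**
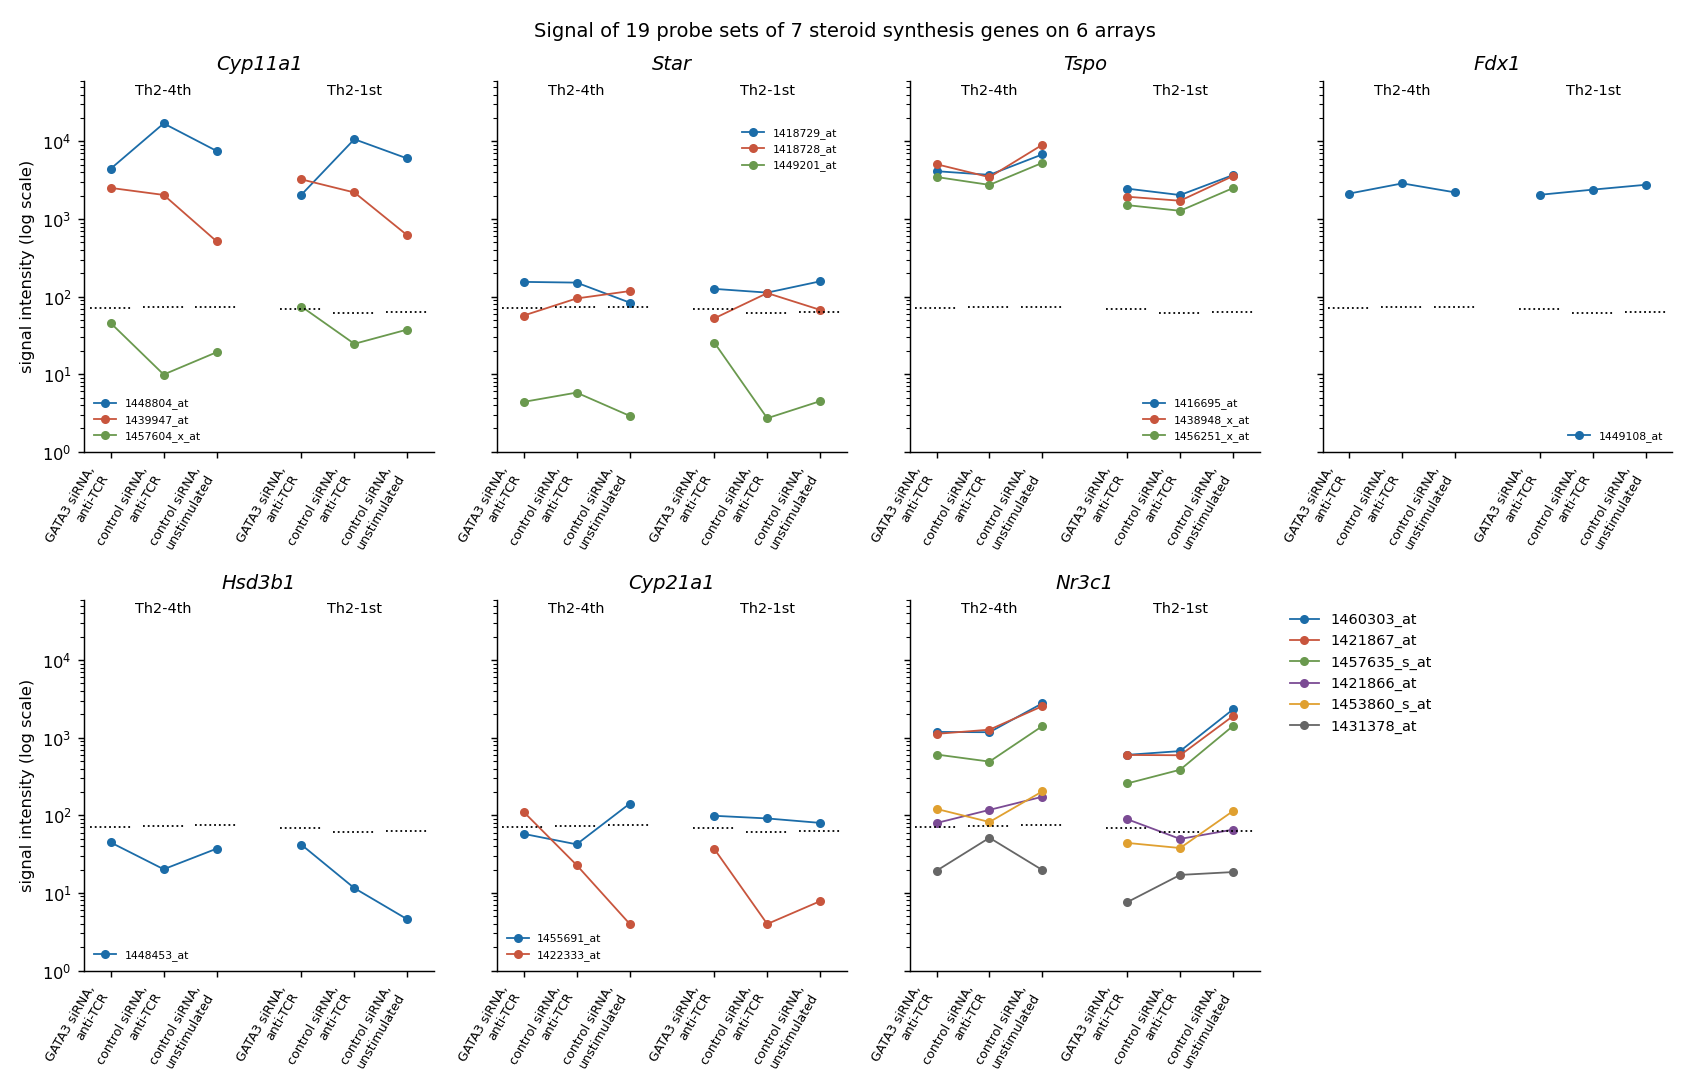
Signal intensity (vertical axis, log scale) of 19 probe sets of 7 steroid synthesis genes on 6 arrays (horizontal axis), 1 line per probe set and culture, with each array's median as a dotted line. Cyp11a1 1448804_at drops to 4446 and 2055 on the GATA3 siRNA arrays, while Cyp11a1 1439947_at does not, and Hsd3b1 lies below the dotted line on all 6 arrays.

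Markers of cells that classically make steroids were low. Of 8 markers of adrenal and gonadal steroid cells, 0 to 1 were above the median on an array, that 1 being Inha, and their summed signal was 388 with GATA3 siRNA, 337 with control siRNA and 485 in unstimulated control cells of the Th2-4th culture. In the Th2-1st culture the sum was 252 with GATA3 siRNA, 233 with control siRNA and 215 in unstimulated control cells. The defining markers Nr5a1, Mc2r, Cyp11b1 and Cyp17a1 were below the median on all 6 arrays. Of 8 mast cell and basophil markers, 1 to 3 were above the median on an array. Their summed signal was 587 with GATA3 siRNA, 1502 with control siRNA and 943 in unstimulated control cells of the Th2-4th culture, and 324 with GATA3 siRNA, 472 with control siRNA and 725 in unstimulated control cells of the Th2-1st culture. This sum was lower with GATA3 siRNA in both cultures, as was Cyp11a1 1448804_at. With stimulation of control cells the sum was higher in the Th2-4th culture and lower in the Th2-1st culture. Cyp11a1 1448804_at was brighter with stimulation in both. Cpa3, a mast cell protease, had 44.9 with GATA3 siRNA, 320 with control siRNA and 582 in unstimulated control cells of the Th2-4th culture. In the Th2-1st culture Cpa3 had 67.7 with GATA3 siRNA, 255 with control siRNA and 562 in unstimulated control cells. It was thus dimmer with stimulation, unlike Cyp11a1 1448804_at. Mcpt8, a basophil protease, had 171 with GATA3 siRNA, 873 with control siRNA and 183 in unstimulated control cells of the Th2-4th culture, all above the array median, and was below the median at 3.01 to 7.63 on the Th2-1st arrays. Gata2, a transcription factor of these cells, was above the median on 5 of 6 arrays, with 247 with GATA3 siRNA and 241 with control siRNA in Th2-4th cells, and 142 with GATA3 siRNA and 107 with control siRNA in Th2-1st cells. The other 5 markers, Kit, Fcer1a, Ms4a2, Mcpt4 and Hdc, were below the median on all 6 arrays. The part of mast cells or basophils in the Cyp11a1 result was not tested.

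The second Cyp11a1 probe set, 1439947_at, gave another pattern. Its signal in stimulated Th2-4th cells was 2516 with GATA3 siRNA and 2043 with control siRNA, a log2 ratio of 0.30 (like-signal spread 0.22). In stimulated Th2-1st cells it was 3243 with GATA3 siRNA and 2199 with control siRNA, a log2 ratio of 0.56 (0.16). It was thus not lower with GATA3 siRNA in either culture, at signals far above the array median. In control cells it responded more to stimulation than the brightest probe set did, with 2043 in stimulated and 515 in unstimulated Th2-4th cells, and 2199 in stimulated and 616 in unstimulated Th2-1st cells. These are log2 ratios of 1.99 (like-signal spread 0.93) and 1.83 (0.75). Between cultures it differed little, with Th2-4th over Th2-1st log2 ratios of -0.11 in stimulated and -0.26 in unstimulated cells.

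The third Cyp11a1 probe set, 1457604_x_at, was dim, above the array median on 1 of 6 arrays. Its signal was 45.6 with GATA3 siRNA and 9.91 with control siRNA in stimulated Th2-4th cells, and 74.5 with GATA3 siRNA and 24.6 with control siRNA in stimulated Th2-1st cells. The log2 ratios, 2.20 and 1.60, were called higher, with wide like-signal spreads of 1.62 and 0.74. The 3 probe sets that name Cyp11a1 therefore did not give 1 answer: 1 was called lower, 1 was not called and 1 was called higher in both knockdown comparisons. Among all probe sets, 11.3% were called lower and 11.4% higher in Th2-4th cells, and 8.50% lower and 14.1% higher in Th2-1st cells. Probe set 1439947_at minus 1448804_at in log2 ratio was 2.24 in Th2-4th cells and 2.94 in Th2-1st cells. A mean of the log2 ratios over the 3 probe sets would have been 0.19 in Th2-4th cells and -0.07 in Th2-1st cells, close to no change. The platform annotation ties 1448804_at to a RefSeq mRNA of Cyp11a1 and the other probe sets to sequences outside RefSeq. Which transcript each of those measured was not tested. The study that made these arrays also measured Cyp11a1 by quantitative PCR. It reported a substantial decrease of the gene under GATA3 siRNA in both cultures, and listed the gene as a GATA3 target. On the arrays, the brightest probe set changed in that direction and the others did not.

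Other genes whose brightest probe set was called lower with GATA3 siRNA were searched for such disagreement. In Th2-4th cells, 4565 genes had at least 2 probe sets above the median on both arrays, and the brightest was called lower in 41 of them. Another probe set of the gene had a log2 ratio above 0 in 2 of the 41 (4.88%), Cyp11a1 and Haghl. In Th2-1st cells, 4584 genes had such probe sets and 29 were called lower by the brightest. Of the 29, 6 (20.7%) had another probe set above 0, namely Cyp11a1, Epn2, Gsn, Htr1b, Rai1 and Trps1. Cyp11a1 was the 1 gene found in both cultures. The disagreement among its probe sets was known when the genes were chosen, so this is a description and no separate support.

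**Figure D2:**
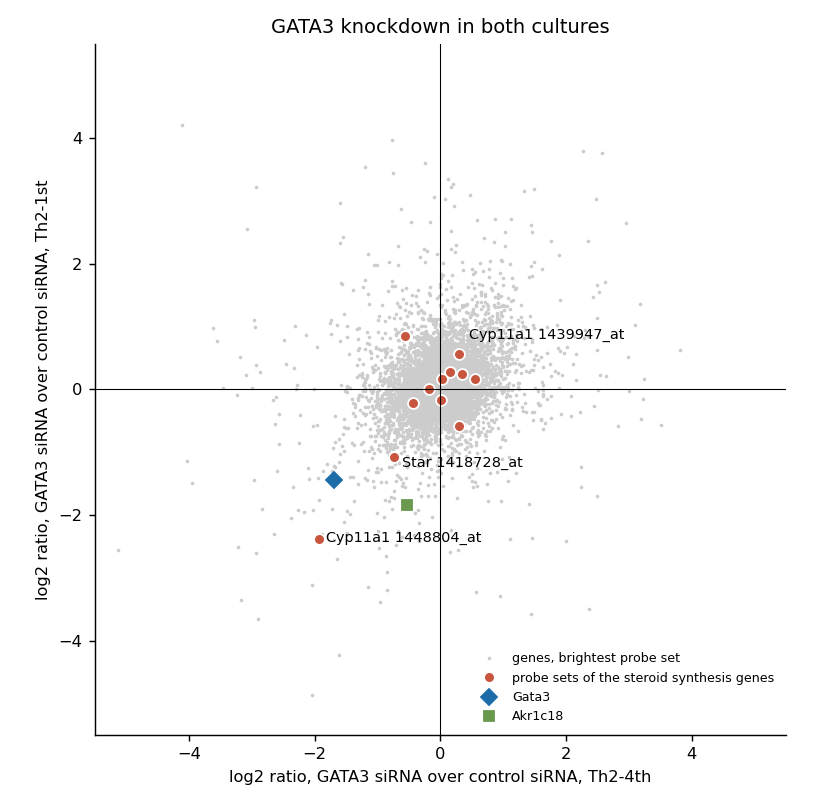
Log2 ratio of GATA3 siRNA over control siRNA in stimulated Th2-4th cells (horizontal axis) and Th2-1st cells (vertical axis), for the brightest probe set of 10280 genes above the array median in both pairs (grey), with probe sets of the steroid synthesis genes in red. Cyp11a1 1448804_at lies at -1.94 and -2.38, Gata3 at -1.70 and -1.44, and Cyp11a1 1439947_at at 0.30 and 0.56.

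The course of 1448804_at over the 6 arrays was nearest to that of Gata3 among 8868 other genes. Likeness was the root mean square difference of log2 signals, each centred on its own mean over the 6 arrays, searched over 15542 probe sets above the median on all arrays. The difference was 0.29 for Gata3, followed by 0.46 for Tent5a (a poly(A) polymerase), 0.49 for Tanc2 (a scaffold protein), 0.49 for Rnf152 (a ubiquitin ligase) and 0.49 for 4932438A13Rik. A flat course would have been 0.96 away, and the second Cyp11a1 probe set was 1.57 away. Over the 4 control siRNA arrays alone Gata3 ranked 134 of the same 8868 genes, so its first place rests on the 2 GATA3 siRNA arrays, where it is the target. The second probe set, 1439947_at, was nearest to Prelid2 (0.12), Ccdc50 (0.16) and Mpzl3 (0.16), against 1.03 for a flat course. These distances rest on 6 arrays and are descriptions.

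**Figure D3:**
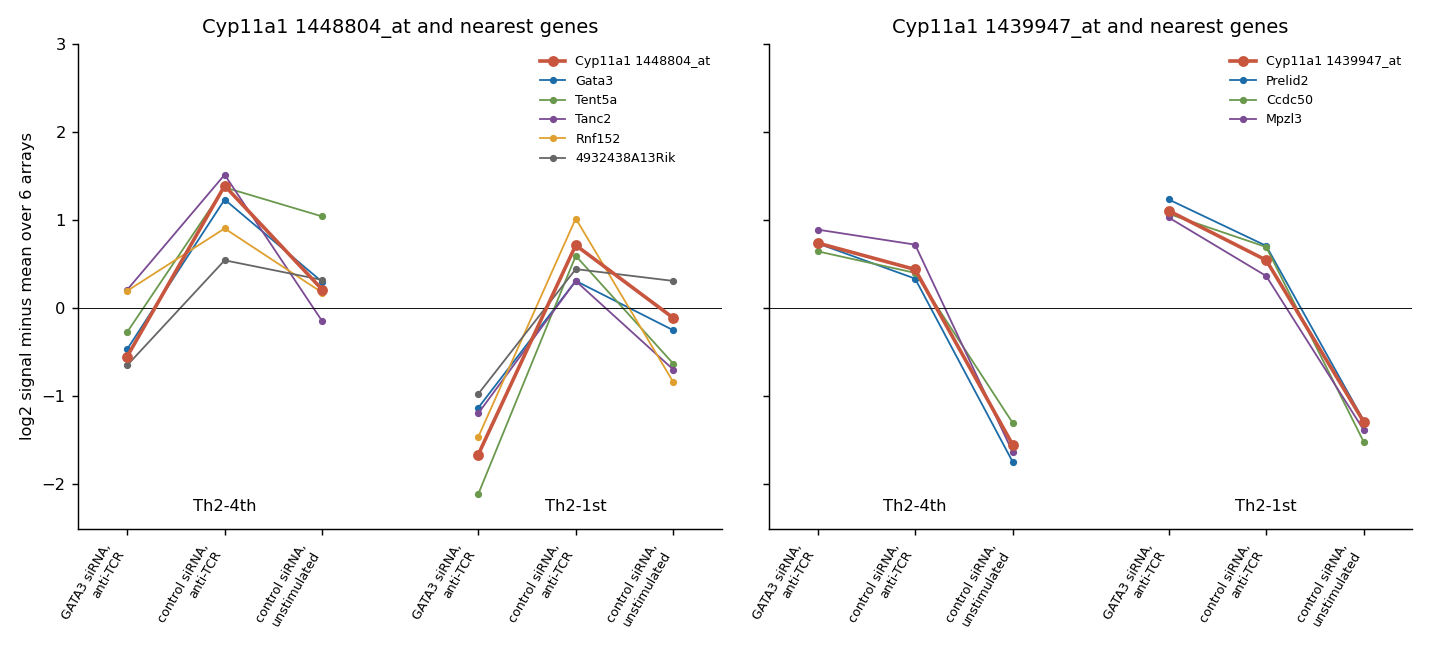
Log2 signal minus its mean over the 6 arrays (vertical axis) on each array (horizontal axis), for Cyp11a1 1448804_at and the 5 nearest genes (left) and for Cyp11a1 1439947_at and the 3 nearest genes (right). The left set is low on the Th2-1st GATA3 siRNA array. On the Th2-4th GATA3 siRNA array, Tanc2 (signal 867) and Rnf152 (signal 342) lie above their own means, and the rest of the left set is low. The right set is low on both unstimulated arrays.

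The genes that deliver cholesterol differed from Cyp11a1. Star, the steroidogenic acute regulatory protein, was dim. Its brightest probe set, 1418729_at, had 155 with GATA3 siRNA and 152 with control siRNA in stimulated Th2-4th cells, and 126 with GATA3 siRNA and 113 with control siRNA in stimulated Th2-1st cells. Unstimulated control cells had 83.9 in Th2-4th and 157 in Th2-1st culture. Probe set 1418728_at had 57.0 with GATA3 siRNA and 94.7 with control siRNA in Th2-4th cells (log2 ratio -0.73, like-signal spread 0.60), and 52.4 with GATA3 siRNA and 111 with control siRNA in Th2-1st cells (-1.08, 0.56). It was called lower in Th2-1st cells alone, and its GATA3 siRNA signals lay below the array medians. The last Star probe set, 1449201_at, was called higher in the same Th2-1st comparison, at 25.6 with GATA3 siRNA and 2.71 with control siRNA (log2 ratio 3.24). In Th2-4th cells it had 4.40 with GATA3 siRNA and 5.79 with control siRNA, and all 6 of its signals lay below the array median. Star thus had opposite calls in Th2-1st cells. No Star probe set was called in either stimulation comparison.

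Tspo, the translocator protein, was bright in all 3 of its probe sets, and these moved together. Probe set 1416695_at had 4132 with GATA3 siRNA and 3708 with control siRNA in stimulated Th2-4th cells, and 2464 with GATA3 siRNA and 2036 with control siRNA in stimulated Th2-1st cells. Over the 3 probe sets the knockdown log2 ratios were 0.16 to 0.55 in Th2-4th cells and 0.17 to 0.28 in Th2-1st cells, and none was called. Tspo was dimmer after stimulation. Probe set 1416695_at had 3708 in stimulated and 6810 in unstimulated Th2-4th cells, and 2036 in stimulated and 3687 in unstimulated Th2-1st cells. The stimulation log2 ratios of the 3 probe sets ran from -1.39 to -0.88 in Th2-4th cells and from -1.06 to -0.86 in Th2-1st cells. Of them, 1438948_x_at was past 2-fold in both cultures and the others fell just short. Their like-signal spreads were wide, 0.79 to 0.82 in Th2-4th cells and 0.68 to 0.73 in Th2-1st cells. Among all probe sets, stimulation called 21.7% lower in Th2-4th cells and 17.3% lower in Th2-1st cells.

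Tspo was also brighter in the Th2-4th culture. The Th2-4th over Th2-1st log2 ratios of its 3 probe sets were 0.86, 1.01 and 1.11 in stimulated cells and 0.89, 1.34 and 1.08 in unstimulated cells, against like-signal spreads of 0.53 to 0.66. Median signals of the Th2-4th arrays were themselves higher, by 0.24 in stimulated and 0.25 in unstimulated cells on the log2 scale. With the arrays centred on their medians the Tspo ratios were 0.63 to 0.87 and 0.64 to 1.09, still above 0 in every probe set.

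Fdx1, the ferredoxin that supplies Cyp11a1 with electrons, was measured by 1 probe set and varied little. Its signal was 2130 with GATA3 siRNA and 2879 with control siRNA in stimulated Th2-4th cells (log2 ratio -0.43, like-signal spread 0.22). It was 2053 with GATA3 siRNA and 2393 with control siRNA in stimulated Th2-1st cells (-0.22, 0.17). Unstimulated control cells had 2201 in Th2-4th and 2763 in Th2-1st culture. Fdx1 was not called in any of the 6 comparisons, and its 6 signals spanned 2053 to 2879.

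The genes that act on pregnenolone and progesterone were at or below the middle of the signal range. Hsd3b1 (1448453_at) was below the array median on all 6 arrays, with 44.7 with GATA3 siRNA, 20.2 with control siRNA and 37.2 in unstimulated control cells of the Th2-4th culture. In the Th2-1st culture it had 41.8 with GATA3 siRNA, 11.5 with control siRNA and 4.57 in unstimulated control cells. Its knockdown log2 ratios, 1.15 and 1.86, were called higher, but rested on signals below the median. Hsd3b1 was thus not measured clearly in any condition.

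Cyp21a1 had a probe set near the array median, 1455691_at, with 57.7 with GATA3 siRNA, 42.3 with control siRNA and 141 in unstimulated control cells of the Th2-4th culture. In the Th2-1st culture it had 98.6 with GATA3 siRNA, 91.1 with control siRNA and 79.9 in unstimulated control cells. It was called lower with stimulation in Th2-4th cells (log2 ratio -1.74, like-signal spread 0.84) and not in Th2-1st cells (0.19, 0.80). Its other probe set, 1422333_at, had 111 with GATA3 siRNA and 22.9 with control siRNA in stimulated Th2-4th cells, and 36.9 with GATA3 siRNA and 3.98 with control siRNA in stimulated Th2-1st cells. These were called higher (log2 ratios 2.28 and 3.21), and 1 signal of the 4, at 111, lay above its array median. The 2 Cyp21a1 probe sets did not move together.

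Nr3c1, the glucocorticoid receptor, was lower after TCR stimulation in both cultures by 4 of its 6 probe sets, and none of its 3 brightest probe sets was called with GATA3 siRNA. Its brightest probe set, 1460303_at, had 1177 in stimulated and 2778 in unstimulated control Th2-4th cells, a log2 ratio of -1.24 (like-signal spread 0.88). In Th2-1st cells it had 673 when stimulated and 2321 when not, a log2 ratio of -1.79 (0.74). Probe set 1421867_at had 1270 in stimulated and 2552 in unstimulated Th2-4th cells, and 594 in stimulated and 1904 in unstimulated Th2-1st cells. The same 4 Nr3c1 probe sets (1460303_at, 1421867_at, 1457635_s_at and 1453860_s_at) were called lower in each culture, with log2 ratios from -1.52 to -1.01 in Th2-4th cells and from -1.88 to -1.58 in Th2-1st cells. Of the others, 1421866_at was not called in either culture, and 1431378_at, below the median on all 6 arrays, was called higher in Th2-4th cells at 51.3 in stimulated and 19.7 in unstimulated cells (log2 ratio 1.38). Among all probe sets, stimulation called 21.7% lower in Th2-4th cells and 17.3% lower in Th2-1st cells.

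With GATA3 siRNA, 1460303_at had 1188 against 1177 with control siRNA in Th2-4th cells and 601 against 673 in Th2-1st cells, log2 ratios of 0.01 and -0.16. Probe set 1421867_at had 1121 against 1270 in Th2-4th cells and 599 against 594 in Th2-1st cells, log2 ratios of -0.18 and 0.01. Both were within their like-signal spreads of 0.26 to 0.27. The third, 1457635_s_at, had 607 with GATA3 siRNA and 492 with control siRNA in Th2-4th cells (log2 ratio 0.30, like-signal spread 0.33). In Th2-1st cells it had 257 with GATA3 siRNA and 387 with control siRNA (-0.59, 0.30), past its like-signal spread and in the other direction. The Nr3c1 probe set called lower with GATA3 siRNA, 1431378_at, had signals of 7.59 to 51.3 and was below the median on all arrays. Between cultures the stimulated arrays had log2 ratios from 0.35 to 1.59 over the 6 probe sets, all above 0, and from 0.11 to 0.88 in the 4 called with stimulation once arrays were centred on their medians. Unstimulated arrays had ratios from -0.01 to 1.41, with 0.26, 0.42 and -0.01 in the 3 brightest. The array medians themselves differed by 0.25 there, so a general rise of Nr3c1 in Th2-4th cells was not shown.

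**Figure D4:**
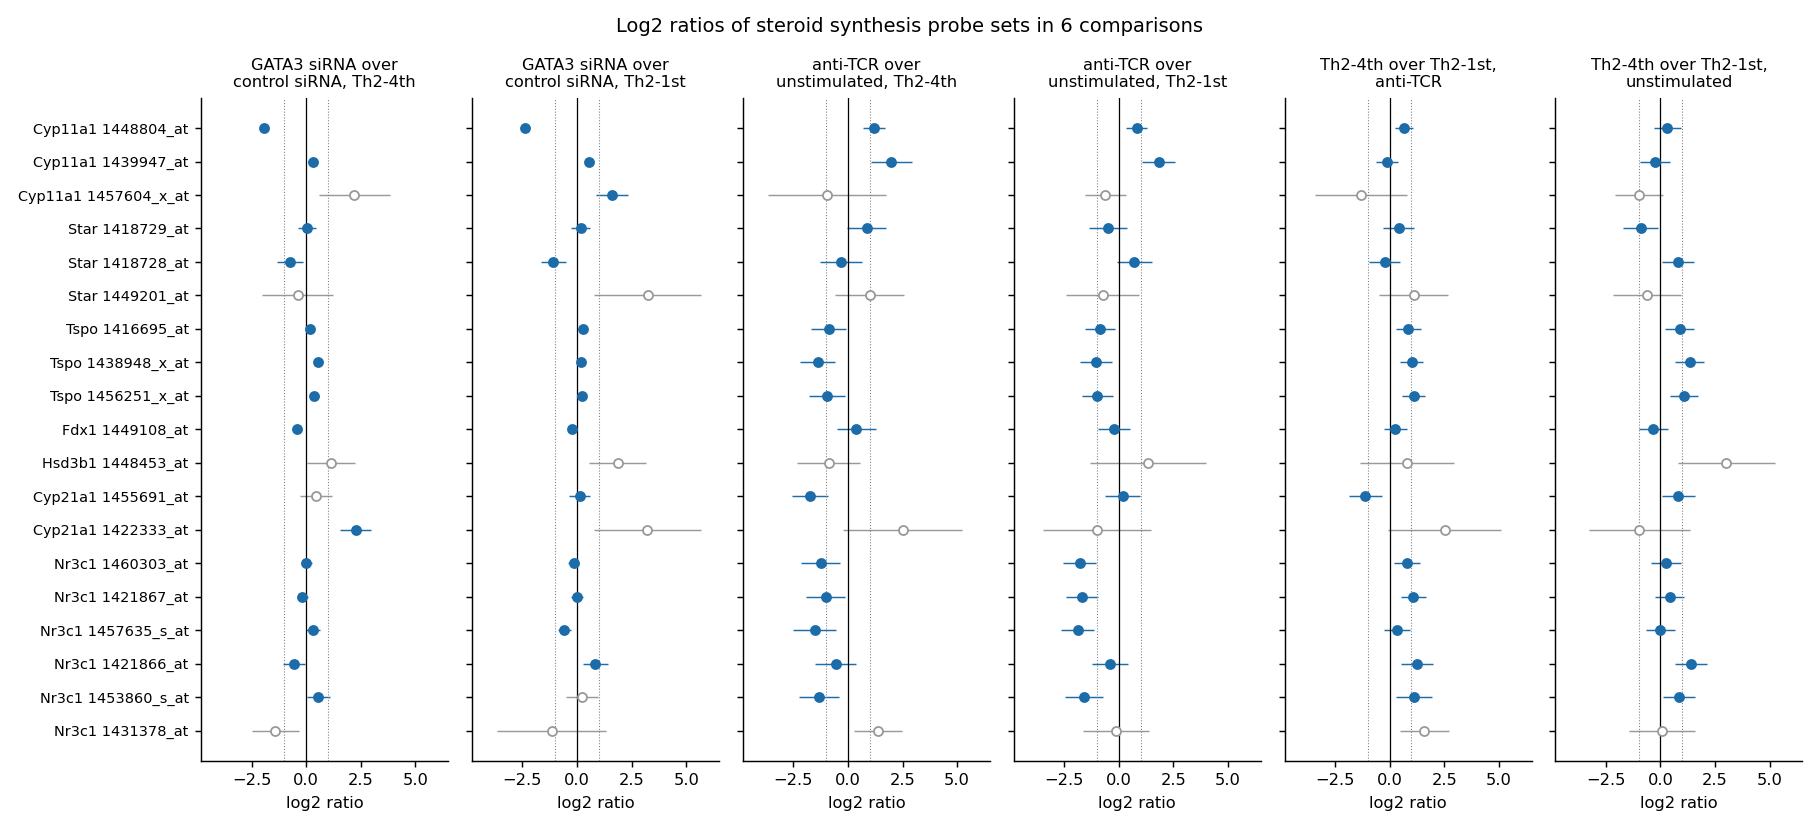
Log2 ratio (horizontal axis) of each of the 19 probe sets (rows) in 6 comparisons (panels), with the like-signal spread as a horizontal bar and dotted lines at 2-fold in each direction; filled points have their higher signal above the array median. In the knockdown panels Cyp11a1 1448804_at has the lowest ratios, -1.94 and -2.38, while Cyp21a1 1422333_at lies farther from 0 on the other side, at 2.28 and 3.21. In the stimulation panels Tspo and the bright Nr3c1 probe sets lie left of 0.

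With GATA3 siRNA in Th2-4th cells, 2 were called lower and 3 higher, and in Th2-1st cells, 3 were called lower and 4 higher, which can be read against the whole-array shares given above. With the higher signal of the pair above its array median, 14 probe sets were left in either culture. Of these, 1 was called lower (Cyp11a1 1448804_at) and 1 higher (Cyp21a1 1422333_at) in Th2-4th cells, where all probe sets so filtered gave 3.58% and 3.03%. In Th2-1st cells 2 were called lower (Cyp11a1 1448804_at and Star 1418728_at) and 1 higher (Cyp11a1 1457604_x_at), against 2.39% and 4.17%. The knockdown comparisons of the 2 cultures share no array.

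In Th2-4th cells stimulation called 6 of the 19 lower and 4 higher, where all probe sets gave 21.7% and 19.2%, and in Th2-1st cells 5 lower and 2 higher, where all gave 17.3% and 17.8%. With the filter on signal there were 6 lower and 2 higher calls in the Th2-4th culture, where all gave 20.5% and 14.8%, and 5 lower and 1 higher in the Th2-1st culture, where all gave 16.5% and 10.5%. Nr3c1 and Tspo gave 5 of the lower calls in each culture. Between cultures, Th2-4th over Th2-1st called 2 lower and 8 higher in stimulated cells, against 13.3% and 17.8%, and 0 lower and 4 higher in unstimulated cells, against 13.1% and 19.8%. With the filter there were 1 lower and 5 higher in stimulated cells, against 7.91% and 11.4%, and 0 lower and 3 higher in unstimulated cells, against 9.94% and 11.7%. With arrays centred on their medians, the stimulated cells had 2 lower and 3 higher, and the unstimulated cells 3 lower and 3 higher. Stimulated control arrays enter the knockdown, stimulation and culture comparisons alike, so that these are not independent of each other.

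Other genes around the pathway were taken by gene, each by its brightest probe set, and in 18194 genes GATA3 siRNA called 10.6% lower and 10.6% higher in Th2-4th cells and 7.49% lower and 13.3% higher in Th2-1st cells. Of 24 other steroid enzymes, 1 was called lower and 2 higher in Th2-4th cells, and 3 lower and 3 higher in Th2-1st cells. Their median log2 ratios, -0.01 and 0.01, were near those of all genes, 0.01 and 0.05. Akr1c18, the hydroxysteroid dehydrogenase that inactivates progesterone, had 3489 with GATA3 siRNA and 5069 with control siRNA in Th2-4th cells (log2 ratio -0.54, like-signal spread 0.21). In Th2-1st cells it had 896 with GATA3 siRNA and 3200 with control siRNA (-1.84, 0.18). Akr1c18 was thus, beside Cyp11a1, a bright steroid enzyme with lower signal under GATA3 siRNA, called in Th2-1st cells alone. It was also brighter with stimulation, at 5069 in stimulated and 1770 in unstimulated Th2-4th cells, and 3200 in stimulated and 1355 in unstimulated Th2-1st cells. Hsd3b3, of the Hsd3b1 family, was called lower in Th2-1st cells at 27.7 with GATA3 siRNA and 73.0 with control siRNA, near the array median.

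Of 19 genes of cholesterol uptake, storage and transport, 0 were called with GATA3 siRNA in either direction in either culture, with median log2 ratios of 0.13 in Th2-4th and -0.03 in Th2-1st cells. Of 3 other mitochondrial P450 and ferredoxin genes, 1 was called lower and 0 higher in Th2-4th cells. In Th2-1st cells 1 was called lower and 1 higher. Cyp24a1, the vitamin D hydroxylase, was called lower in both cultures by its brightest probe set, at signals near or below the median. It had 9.29 with GATA3 siRNA and 33.1 with control siRNA in Th2-4th cells. In Th2-1st cells it had 17.3 with GATA3 siRNA and 68.2 with control siRNA, but the mean log2 ratio over its probe sets was above 0 there. Of 17 regulators of steroid synthesis, 2 were called lower and 1 higher in Th2-4th cells and 1 lower and 6 higher in Th2-1st cells. These counts can be read against the shares of all genes given above. The 1 regulator called above the array median was Nr4a2, an orphan nuclear receptor induced by activation, with 11583 with GATA3 siRNA and 8011 with control siRNA in Th2-4th cells (log2 ratio 0.53), and 11130 with GATA3 siRNA and 3646 with control siRNA in Th2-1st cells (1.61).

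On the receptor side, of 11 partners of the glucocorticoid receptor 1 was called lower and 1 higher in Th2-4th cells and 0 lower and 1 higher in Th2-1st cells. Of 18 glucocorticoid response genes, 2 were called lower and 1 higher in Th2-4th cells, and 0 lower and 2 higher in Th2-1st cells, with median log2 ratios of 0.17 and 0.21. Over all genes the medians were 0.01 and 0.05. All genes gave 10.6% lower and 10.6% higher in Th2-4th cells, and 7.49% lower and 13.3% higher in Th2-1st cells. Sgk1, a kinase, had 4532 with GATA3 siRNA and 1649 with control siRNA in Th2-4th cells (log2 ratio 1.46), and 2172 with GATA3 siRNA and 1250 with control siRNA in Th2-1st cells (0.80). Dusp1, a phosphatase of MAP kinases, had 1345 with GATA3 siRNA and 689 with control siRNA in Th2-4th cells, and 1338 with GATA3 siRNA and 480 with control siRNA in Th2-1st cells, where it was called higher. Anxa1, annexin A1, had log2 ratios of 0.70 in Th2-4th and 1.03 in Th2-1st cells. Cxcr4, a chemokine receptor, ran the other way with -1.32 in Th2-4th and -0.61 in Th2-1st cells, so that the list held calls in both directions. The other gene called lower in Th2-4th cells was not among the 4 of largest ratio that are named.

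**Figure D5:**
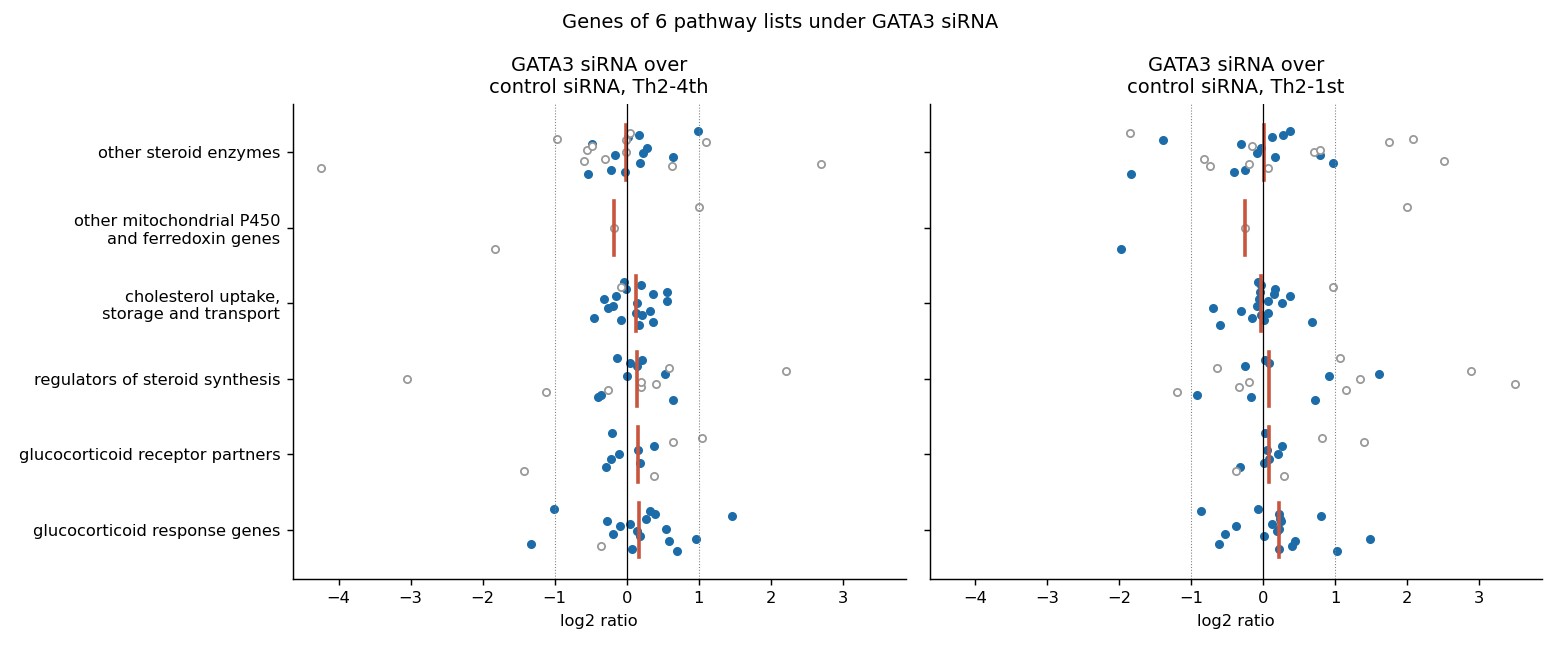
Log2 ratio of GATA3 siRNA over control siRNA (horizontal axis) for each gene of 6 pathway lists (rows) in stimulated Th2-4th (left) and Th2-1st cells (right); filled points have their higher signal above the array median and red bars mark the list medians. The list medians lie near 0, and all 19 cholesterol genes stay within the dotted 2-fold lines.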

How the data were processed

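The deposited series matrix held signal intensity values on a linear scale, which the authors had made with Affymetrix Expression Console from 3' IVT labelled RNA, 1 array per condition, whose summary algorithm and version are not stated in what was read here. Each array had the same trimmed mean, so no further scaling was applied. Probe sets were named through the platform annotation, which gave 34958 with 1 gene, 932 with several and 9211 with none. Of those with 1 gene, 34754 matched a RefSeq gene and took its symbol. Log2 ratios were taken for 6 comparisons in Python 3.11.15 (numpy 2.4.6, pandas 2.3.3) without a signal filter, and the call steps were checked on simulated folds. No test was made, and the number of arrays limits the precision. The members and gene lists were chosen with earlier results of these data known. Named genes were all member probe sets, Gata3, up to 4 genes a list past 2-fold above the median in a knockdown pair, and the 5 and 3 genes nearest to the first and second Cyp11a1 probe set. Promoter windows were RefSeq's (GRCm38.p6). Alternatives were median centring, quantile normalization, raising signals to the array median, a signal filter, a 3.16-fold threshold, omitting x and s probe sets, and 1 value per gene; those on likeness and on named pathway genes were chosen after seeing the data.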

Additional observations from a re-analysis of the deposited data

Results flagged for a closer look

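In 4 probe sets the log2 ratios of the 2 cultures had opposite signs and were both over 0.5 in size; the differences were not tested. For Nr3c1 1421866_at the knockdown ratio was -0.56 in Th2-4th and 0.84 in Th2-1st cells, a difference of -1.41, at signals of 79.6 with GATA3 siRNA and 117 with control siRNA in Th2-4th cells and 89.1 with GATA3 siRNA and 49.6 with control siRNA in Th2-1st cells. For Star 1449201_at the stimulation ratio was 0.99 in Th2-4th and -0.73 in Th2-1st cells, a difference of 1.72. For Hsd3b1 1448453_at the stimulation ratio was -0.88 in Th2-4th and 1.33 in Th2-1st cells, a difference of -2.22. For Cyp21a1 1422333_at the stimulation ratio was 2.51 in Th2-4th and -0.98 in Th2-1st cells, a difference of 3.49. The signals behind the Star, Hsd3b1 and Cyp21a1 ratios all lay below their array medians.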

How the results depend on the processing

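Of the 19 probe sets, the main counts (lower, higher) were 2 and 3 (Th2-4th) and 3 and 4 (Th2-1st) for GATA3 siRNA, 6 and 4 (Th2-4th) and 5 and 2 (Th2-1st) for stimulation, and 2 and 8 (stimulated) and 0 and 4 (unstimulated) for Th2-4th over Th2-1st. Counts of so few probe sets moved under most alternatives; those that moved by over 1.5 times follow. Raising signals below the array median to that median left 1 lower and 0 higher for GATA3 siRNA in each culture, 2 higher (Th2-4th) and 1 higher (Th2-1st) for stimulation, and 0 lower and 3 higher for stimulated Th2-4th over Th2-1st. Counting above the median gave 1 lower for GATA3 siRNA in Th2-4th cells, 1 higher in each culture, 2 higher (Th2-4th) and 1 higher (Th2-1st) for stimulation, and 1 lower and 5 higher for stimulated Th2-4th over Th2-1st. A 3.16-fold threshold gave 1 lower for GATA3 siRNA in each culture, 1 lower and 2 higher (Th2-4th) and 3 lower and 1 higher (Th2-1st) for stimulation, and 0 lower and 1 higher (stimulated) and 1 higher (unstimulated) between cultures. Without x and s probe sets, stimulation called 3 lower (Th2-4th) and 2 lower (Th2-1st), and Th2-4th over Th2-1st 1 lower and 5 higher (stimulated) and 2 higher (unstimulated). Centring arrays gave 3 higher (stimulated) and 3 lower (unstimulated) between cultures, and quantile normalization 5 and 3, with 1 higher for stimulation in Th2-1st cells. By gene, with the brightest probe set of each of 7 genes, GATA3 siRNA called 1 lower and 1 higher in each culture, stimulation 2 and 1 (Th2-4th) and 1 and 1 (Th2-1st), and Th2-4th over Th2-1st 1 lower and 0 higher (stimulated) and 1 higher (unstimulated). With the mean over probe sets, GATA3 siRNA called 0 lower in each culture and 2 higher in Th2-1st cells, stimulation 1 and 0 (Th2-4th) and 1 and 1 (Th2-1st), and Th2-4th over Th2-1st 0 lower and 1 higher (stimulated) and 2 higher (unstimulated).

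Ratios that turned sign when low signals were raised to the median came to about 0, by construction: -0.037 for Cyp11a1 1457604_x_at and Hsd3b1 with GATA3 siRNA in Th2-4th cells, 0.24 for Cyp11a1 1457604_x_at in stimulated Th2-4th over Th2-1st, -0.017 for Hsd3b1 with stimulation in Th2-1st cells, -0.026 for Cyp21a1 1422333_at and Nr3c1 1431378_at with stimulation in Th2-4th cells, and 0.17 for Nr3c1 1431378_at and 0.029 for Cyp24a1 with GATA3 siRNA in Th2-1st cells. Averaging probe sets turned Cyp11a1 to 0.19 with GATA3 siRNA in Th2-4th cells, Cyp21a1 to 0.39 with stimulation in Th2-4th cells and 0.71 in stimulated Th2-4th over Th2-1st, and Cyp24a1 to 1.32 with GATA3 siRNA in Th2-1st cells. Cyp11a1 1448804_at was called lower in both cultures also under centring, quantile normalization and the raised floor. Gata3 stayed nearest to it after quantile normalization, ranked 4 without the signal filter, and 134 of 8868 genes over the 4 control siRNA arrays. The labels give no replicate numbers that pair arrays, and a fit with culture as a block was not made.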
